A study of Mus musculus with 8 samples.

Results

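The gene for CTCF and the genes for 5 core subunits of cohesin (Ctcf, Smc3, Smc1a, Rad21, Stag1 and Stag2) were examined as places where CTCF and cohesin bind, in mouse embryonic stem cells. They were chosen by name, and all 6 were found among the 21887 protein-coding genes on the assembled chromosomes of the RefSeq table for GRCm38 (mm10). Each was taken with 50 kb to each side, 1257 kb in all, and every peak with its summit in such a window was counted. Chromatin immunoprecipitation and sequencing (ChIP-seq) of CTCF and of the cohesin subunit Smc3 had been done in 2 lines of JM8.N4 cells. The wild-type (WT) line carries no tag. C59 is 1 clone, homozygous for a FLAG-Halo-CTCF and a Rad21-SNAPf-V5 knock-in, so that Ctcf and Rad21 are themselves the altered loci and the other 4 genes are not. Both lines were grown on gelatin without feeders, in serum and LIF. Each line and protein had 1 library, so no difference between lines could be set against a replicate spread, and no test between lines was made. The inputs and the control IgG libraries were not analysed here. Peak lists measure no expression, so the cell type could not be checked against marker genes.

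CTCF reads a long DNA motif with a row of zinc fingers and marks insulators and loop anchors. Cohesin is a ring of Smc1a, Smc3 and the kleisin Rad21, to which either Stag1 or Stag2 is attached. The ring pairs sister chromatids after replication and also reels DNA into loops, which tend to halt at bound CTCF, so that a CTCF site often also shows cohesin in ChIP-seq. Stag1 and Stag2 are partly interchangeable.

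The lists held 98759 and 82227 peaks for CTCF and 47281 and 25734 for Smc3, in WT and C59. The depth that the pileup background implies was 0.869 times that of WT for C59 CTCF and 1.11 times for C59 Smc3, if fragment length was set alike. The strength of a peak is given as the authors' fold enrichment, the pileup of fragments at the summit over the local background. It ranks peaks within a list, and values from several lists are set side by side without a ratio. Intervals after a fold are exact 95% Poisson intervals on the summit pileup, those after a share exact 95% Clopper-Pearson intervals, and both cover counting error only. Where a list has no peak, the signal did not pass the peak caller, and binding below that level remains possible.

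CTCF was found in all 6 windows in WT and Smc3 in 4 of them. Over all protein-coding genes 9.77% of such windows had no WT CTCF summit and 14.8% no WT Smc3 summit. The windows without Smc3, at Smc1a and Stag2, are on X, where 40.6% of genes had no WT Smc3 summit in theirs. Merged where they overlapped, the peaks formed 66 sites, of which 64 had CTCF in WT, 51 CTCF in C59, 24 Smc3 in WT and 12 Smc3 in C59. Stag1 (20 sites), Smc3 (18) and Ctcf (17) held most of them, Rad21 and Stag2 held 5 each, and Smc1a held 1. At 30 sites there was CTCF in both lines and no Smc3, at 12 CTCF and Smc3 in both lines, and at 9 CTCF in both lines with Smc3 in WT alone. At 12 sites a WT CTCF peak stood alone, at 2 a WT Smc3 peak stood alone, and at 1 both stood in WT only. No site was seen in C59 only. The map of all summits along the 6 genes shows where they lie.

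**Figure D1:**
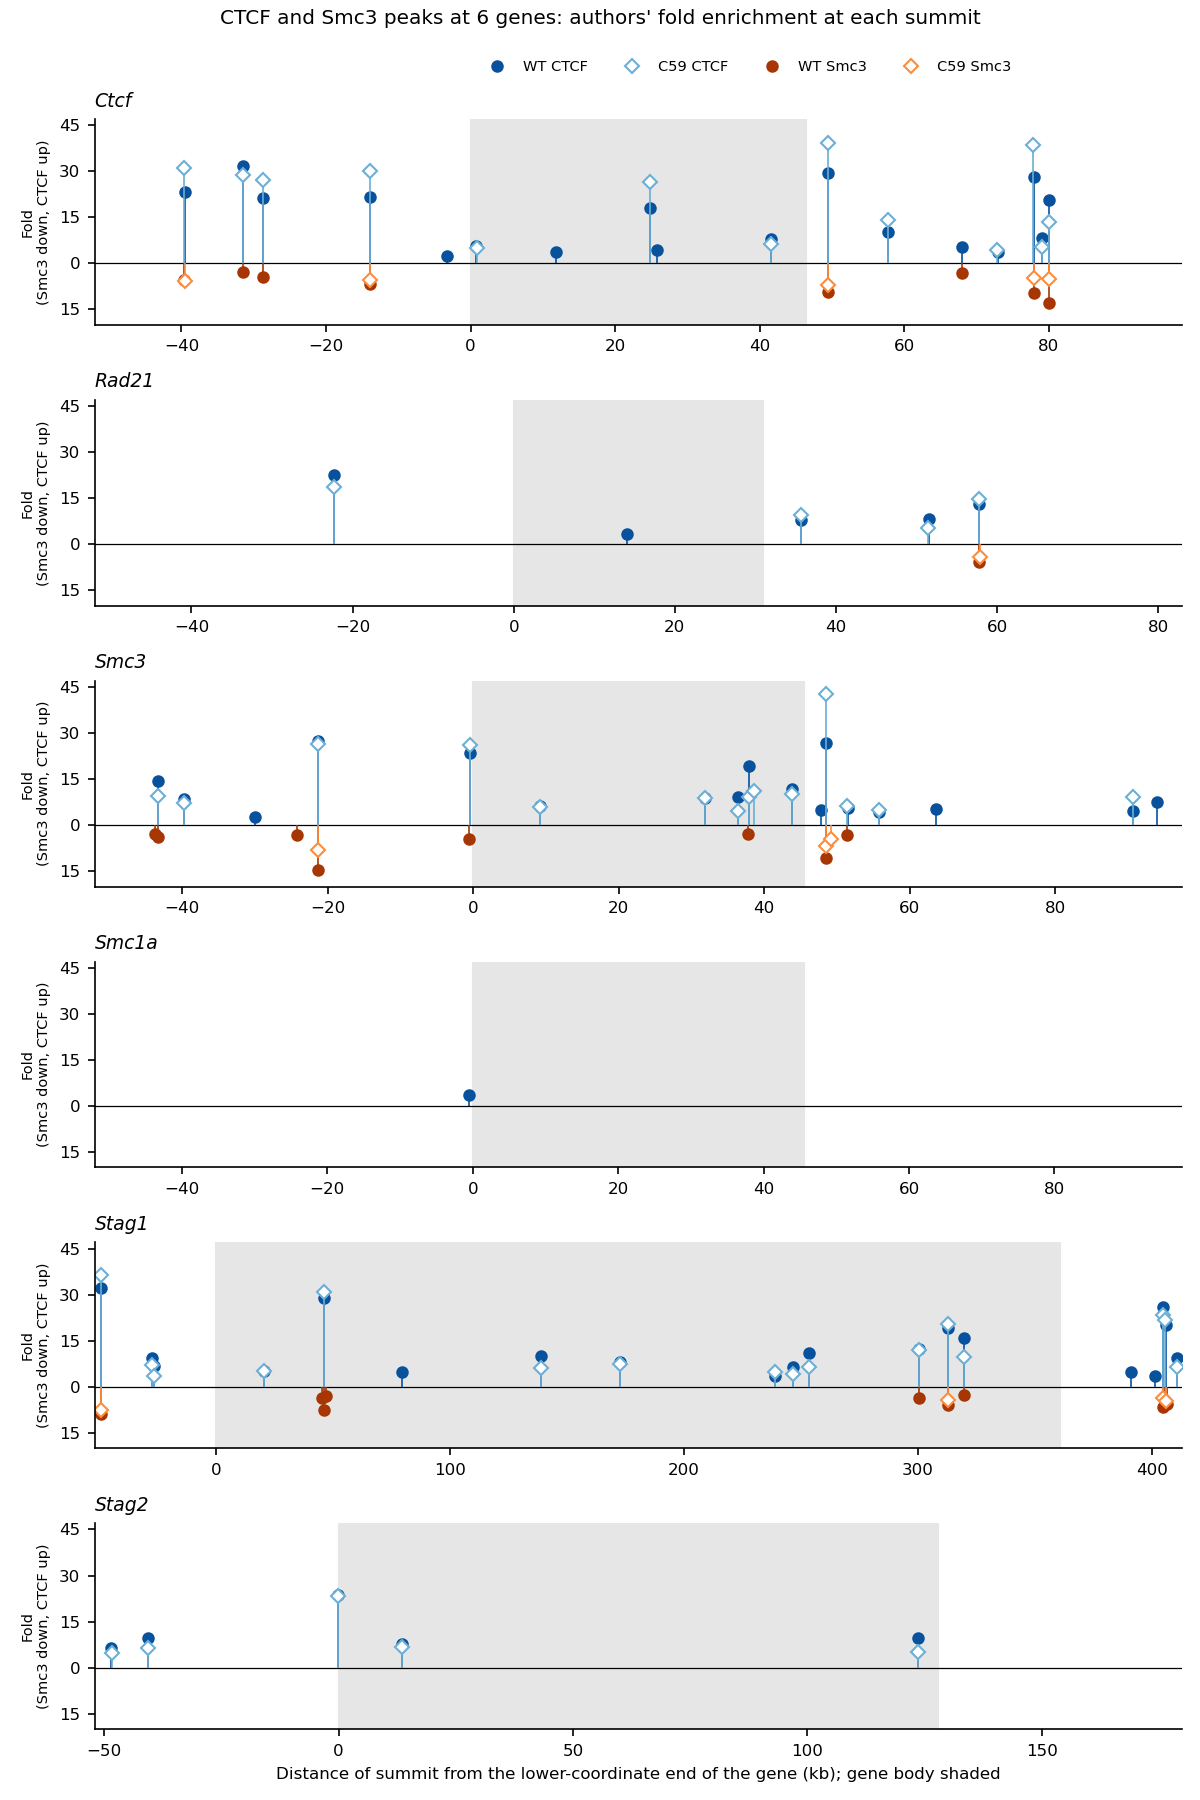
Every peak summit in the 6 windows, by distance from the lower-coordinate end of the gene (kb, gene body shaded); height is the authors' fold enrichment, drawn upward for CTCF (WT filled circles, C59 open diamonds) and downward for Smc3. CTCF of C59 stands beside CTCF of WT at 51 of 64 sites, Smc3 of C59 lies outside the gene bodies except at 1 site in Stag1, and Smc1a shows 1 WT CTCF peak.

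Ctcf itself (chromosome 8, 105636474 to 105682922) lay amid strong CTCF sites and carried a weak one at its start. The peak at the lower end, which is the promoter end, had its summit 0.796 kb inside the gene in WT, with a fold of 5.69 (4.24 to 7.49), and in C59 a fold of 4.87 (3.16 to 7.20). No Smc3 peak stood there in either line. The strongest site within the gene, 24.9 kb from that end, had folds of 17.9 in WT and 26.4 in C59, again without Smc3 in either list. A further body site had 7.84 and 6.16, and 2 weak ones, at 3.82 and 4.30, were seen in WT alone. Of all WT CTCF peaks in the same decile of fold as the 17.9 site, which starts at 17.5, 86.2% overlapped Smc3, and 69.2% in the decile below. In the C59 decile of the 26.4 site 76.9% of CTCF peaks overlapped Smc3, and 62.9% in the decile below. A CTCF peak of that strength without Smc3 is thus in the minority in each list.

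Smc3 near Ctcf was confined, in both lists, to the flanks. Of 8 WT Smc3 sites, 5 were found in C59. The nearest lay 2.99 kb beyond the upper end of Ctcf, in or at Carmil2, with CTCF folds of 29.4 in WT and 39.1 in C59 and Smc3 folds of 9.30 and 6.98. On the promoter side the nearest lay in or at Ripor1, 13.9 kb away, with 21.7 and 29.9 for CTCF and 6.68 and 5.53 for Smc3. Farther out, a second Ripor1 site had Smc3 folds of 5.57 and 5.60, and a pair of sites in or at Gfod2 had 9.70 and 4.80, and 12.9 and 4.99. The 3 Smc3 sites seen in WT alone were weak, with folds of 2.93, 3.03 and 4.36. So the gene stood between Smc3 sites that both lines shared, with none inside it.

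Values at Ctcf stand on a raised background in WT, and the WT medians of its chromosome are raised too. The median background at its WT CTCF summits was 8.70, against 5.22 over the whole list and 6.96 on chromosome 8, and at its WT Smc3 summits 8.90, against 5.10 over the list and 7.62 on chromosome 8. In C59 the medians at Ctcf were 4.50 for CTCF, against 4.00 over the list and 4.00 on chromosome 8. For C59 Smc3 they were 5.00, against 4.26 over the list and 4.00 on chromosome 8. On chromosomes 2 to 7 the medians for CTCF and Smc3 were 4.98 and 5.09 in WT and 4.00 and 4.00 in C59. Chromosome 8 was thus raised in WT and not in C59, and the cause was not tested. At a given pileup a higher background lowers the fold, and its part in the WT folds and pileups at Ctcf was not tested. The pileups at the Carmil2 site, for instance, were 335 in WT and 234 in C59, although the C59 fold was the higher number. The lists differ in depth and in the step of the pileup, so neither number measures a difference in binding.

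Smc3, which encodes one of the coiled-coil ATPase arms of the ring (chromosome 19, 53600396 to 53645831), had a strong CTCF peak right at its promoter. The summit lay 0.472 kb before the gene in WT and 0.484 kb before it in C59, with folds of 23.3 (20.3 to 26.7) and 26.1 (22.3 to 30.4). WT Smc3 stood at the same place with a fold of 4.62 (3.26 to 6.38), and no C59 Smc3 peak did. This was the single Smc3 peak at an annotated end of any of the 6 genes in either line. Inside the gene CTCF was found in both lines at 5 sites, with WT folds from 6.11 to 19.3, and Smc3 at 1 of them in WT alone (2.83).

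In its flanks, the Smc3 gene had a site with all 4 peaks on either side. One lay 21.3 kb before the gene, with CTCF folds of 27.5 in WT and 26.3 in C59 and Smc3 folds of 14.7 and 8.01, the highest Smc3 folds in the 6 windows in each list. The other lay 3.10 kb beyond the upper end, with 26.6 and 42.6 for CTCF, the highest C59 CTCF fold in the windows, and 10.7 and 6.88 for Smc3. The remaining WT Smc3 peaks here had folds from 2.83 to 4.62 and none was found in C59. Of 17 WT CTCF sites 4 were seen in WT alone, among them the strongest such site of the 6 windows, in Rbm20, 48.6 kb beyond the gene (7.61).

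Smc1a, the partner arm of the ring (chromosome X, 152016428 to 152061973), had nearly no peaks. A WT CTCF peak of fold 3.51 (2.41 to 4.97) stood 0.472 kb before its start, in or within 1 kb of Ribc1. No other peak of the 4 lists had its summit within 50 kb of the gene. The next CTCF summits lay 58.0 kb before the gene in C59 (fold 6.54) and 70.2 kb beyond it in both lines (7.67 in WT and 5.70 in C59). The nearest Smc3 summits lay 69.2 kb before it in both lines (4.39 and 4.95). Such bare windows are common on that chromosome, where 28.9% of 966 protein-coding genes had no C59 CTCF summit in theirs, 40.6% no WT Smc3 summit and 62.4% no C59 Smc3 summit, against 11.1%, 14.8% and 22.0% of all genes. The median background at summits was also lower on X. In WT it was 4.27 for CTCF and 4.16 for Smc3, against 4.98 and 5.09 on chromosomes 2 to 7. In C59 it was 3.56 for each, against 4.00. Its part in the missing peaks at Smc1a and Stag2 was not tested.

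Rad21, the kleisin that closes the ring (chromosome 15, 51962604 to 51993538), carried no peak of any list within 1 kb of an end. Inside the gene stood 1 weak CTCF peak, 14.1 kb from the lower end, in WT alone (fold 3.49, 2.19 to 5.30). The flanks held 4 CTCF sites, all found in both lines, and these were 22.3 kb below the gene (22.6 in WT and 18.5 in C59) and 4.75 kb (7.90 and 9.49), 20.5 kb (8.23 and 5.29) and 26.8 kb (13.2 and 14.6) above it. Only the last had Smc3, with folds of 5.75 in WT and 4.27 in C59. The strongest site, below the gene, had no Smc3 in either line. Beyond the window, 50.7 kb below the gene, stood another Smc3 peak of both lines (16.5 and 9.81). So at both tagged loci the C59 lists showed no peak that WT lacked, and the WT peaks that C59 lacked had folds from 2.36 to 5.48. The untagged genes had no site of C59 alone either, and 97.1% of all C59 CTCF peaks and 98.1% of all C59 Smc3 peaks overlapped a WT peak. The table of genes gives no codons, so the tags could not be placed within Ctcf and Rad21.

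Stag1 (chromosome 9, 100597709 to 100958544), the longest of the 6 genes at 360.8 kb, had 11 WT CTCF summits in its body, the strongest at its promoter. The RefSeq promoter table sets a start of Stag1 inside the annotated gene, at 100643448, so that the peak there counted as body and not as gene end. The CTCF summit lay 131 bp past that start in WT and 151 bp past it in C59, with folds of 29.0 (25.0 to 33.3) and 31.0 (26.3 to 36.4). WT Smc3 stood at the same site with a fold of 7.44 (5.51 to 9.84), 198 bp past the start, and C59 Smc3 did not. In the same decile of WT Smc3 fold, 75.0% of peaks were found in C59, and this was the single peak of the 6 windows in that decile. A second WT Smc3 peak on the promoter CTCF site (3.49), with its summit before the start, was not found in C59 either. A weak WT Smc3 peak without CTCF (3.09) lay 1010 bp past the start.

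Within the rest of the Stag1 body, CTCF was found in both lines at 9 further sites, with WT folds from 3.61 to 19.2. The site of 19.2 in WT and 20.3 in C59, 312.8 kb from the lower end, also had Smc3 in both lines (5.91 and 4.18) and was the single Smc3 site of C59 inside any of the 6 genes. The 2 sites on either side of it had Smc3 in WT alone (3.71 and 2.68). Outside the gene, Smc3 of both lines stood at Slc35g2, 49.2 kb below (8.99 and 7.45), and at a pair of sites in Pccb, 43.7 kb and 45.3 kb above (6.73 and 3.71, 5.56 and 4.78). CTCF at Slc35g2 had folds of 32.2 in WT, the highest WT CTCF fold of the windows, and 36.4 in C59.

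Stag2 (chromosome X, 42149297 to 42277186), the alternative subunit to Stag1, had CTCF at its lower-coordinate end and no Smc3 anywhere in its window. The CTCF summit there lay 0.082 kb below the gene in WT and 0.068 kb below it in C59, with folds of 23.5 (19.6 to 28.1) and 23.4 (19.3 to 28.1). The other 4 CTCF sites, of which 2 in the body and 2 in or at Xiap, were also found in both lines, with folds from 6.36 to 9.72 in WT and from 4.85 to 6.75 in C59. It was the single gene of the 6 at which every WT CTCF peak was found in C59 and none had Smc3. These peaks lay in deciles 4, 5, 6 and 9 of fold, where 82.3%, 95.1%, 99.4% and 100% of peaks were found in C59. In deciles 4, 5 and 6, which held all but the strongest, 6.83%, 24.4% and 37.9% of WT CTCF peaks on X overlapped Smc3. Being found in C59 is thus usual at these folds, and so is lacking Smc3, except for the strongest peak. Among WT CTCF peaks in the decile of the site at the lower-coordinate end, 93.8% overlapped Smc3, and 91.0% of those on X. Its WT fold is near the lower edge of that decile, and in the decile below the shares were 86.2% and 83.2%. In the C59 decile of the same site 62.9% of CTCF peaks overlapped Smc3, and 45.5% of those on X, so a missing C59 Smc3 peak is common there. The nearest Smc3 summits were 57.8 kb above the gene in WT (3.88) and 235.6 kb above it in C59 (7.32).

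The table of RefSeq promoters (GRCm38.p6) held 4 of the 6 genes, and the 250 bases before each start are printed 5′ to 3′ because a peak of these lists stands at or beside them, with capitals marking CCCTC or its reverse complement.
Ctcf (chr8:105636288-105636537, plus strand): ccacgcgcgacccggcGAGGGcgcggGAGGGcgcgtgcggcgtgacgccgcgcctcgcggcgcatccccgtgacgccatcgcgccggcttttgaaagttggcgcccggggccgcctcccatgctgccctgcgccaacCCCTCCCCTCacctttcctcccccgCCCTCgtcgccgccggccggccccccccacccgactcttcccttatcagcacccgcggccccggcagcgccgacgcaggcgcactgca
Smc3 (chr19:53600146-53600395, plus strand): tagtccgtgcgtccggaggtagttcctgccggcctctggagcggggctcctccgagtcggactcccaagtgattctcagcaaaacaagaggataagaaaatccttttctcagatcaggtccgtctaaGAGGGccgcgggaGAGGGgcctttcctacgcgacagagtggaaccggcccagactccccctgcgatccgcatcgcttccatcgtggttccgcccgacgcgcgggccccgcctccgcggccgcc
Smc1a (chrX:152016178-152016427, plus strand): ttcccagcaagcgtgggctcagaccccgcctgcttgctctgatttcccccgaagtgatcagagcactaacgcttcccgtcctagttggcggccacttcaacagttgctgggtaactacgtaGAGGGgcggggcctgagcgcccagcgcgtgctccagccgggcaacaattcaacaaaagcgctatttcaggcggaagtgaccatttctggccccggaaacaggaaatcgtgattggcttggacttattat
Stag1 (chr9:100643198-100643447, plus strand): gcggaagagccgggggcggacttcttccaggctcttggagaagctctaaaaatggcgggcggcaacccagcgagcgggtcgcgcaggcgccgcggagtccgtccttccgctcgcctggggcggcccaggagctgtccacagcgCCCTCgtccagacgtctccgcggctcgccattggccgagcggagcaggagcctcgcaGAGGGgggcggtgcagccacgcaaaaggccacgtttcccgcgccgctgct
CTCF peaks of both lines covered all 250 bases at Smc3 and at Stag1. At Smc1a the WT peak reached over 15 of them, and at Ctcf no peak overlapped them, as its CTCF summit lay 732 bp past the start in WT and 768 bp past it in C59. The CTCF core consensus, searched with any base allowed at its variable positions, occurred on neither strand of the 4 windows, and 2.07% of 32851 promoters hold a match. CCCTC, the pentamer for which CTCF was named, occurred 5 times at Ctcf, 2 times at Smc3, 1 time at Smc1a and 2 times at Stag1, counting both strands, and 60.5% of promoters hold it. The summits at Smc3, Stag1, Smc1a and Ctcf lay outside the printed bases, so these matches are not under a summit. GC content was 77.6% at Ctcf, 71.2% at Stag1, 64.4% at Smc3 and 56.8% at Smc1a, against a median of 52.4% over all promoters.

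At annotated gene ends, then, CTCF was found at 4 of the 6 genes in WT (Ctcf, Smc3, Smc1a and Stag2) and at 3 in C59, with Smc1a the one without. Over all protein-coding genes 38.3% had a WT CTCF summit within 1 kb of an end and 32.9% a C59 one. Smc3 stood at 1 of the 6 in WT and at 0 in C59, against 20.8% and 11.2% of all genes. These counts leave out the Stag1 promoter, with CTCF in both lines and Smc3 in WT, because its start lies inside the annotated gene. A window of 2500 bp gave the same counts of 4, 3, 1 and 0, while over all genes the shares rose to 56.8%, 51.1%, 34.8% and 20.7%. With 6 genes these counts do not set the group apart from genes at large.

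Among 12 genes for the loading, release, acetylation and cleavage of cohesin, CTCF stood at an end of 6 in the WT list and 4 in the C59 list, and Smc3 at 3 and 0. The 3 were Wapl, the release factor (Smc3 fold 3.57), Esco1, an acetyltransferase of Smc3 (6.05), and Espl1, the protease separase that cuts Rad21 (3.68). These counts depend on the window, since within 2500 bp CTCF stood at 10 of the 12 in each line and Smc3 at 5 in WT and 0 in C59, Nipbl (3.84) and Sgo1 (5.25) being added. Among 5 germ-line paralogues, Ctcfl, the relative of Ctcf (CTCF folds 19.7 and 26.0), and Rec8, the meiotic kleisin (10.5 and 8.92), had CTCF in both lines, and no paralogue had Smc3. No C59 Smc3 peak lay at an end of any of these 17. Over all protein-coding genes the shares within 1 kb were 38.3% and 32.9% for CTCF and 20.8% and 11.2% for Smc3, in WT and C59. Within 2500 bp they were 56.8% and 51.1% for CTCF and 34.8% and 20.7% for Smc3. Whether these few genes differ from genes at large was not tested.

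**Figure D2:**
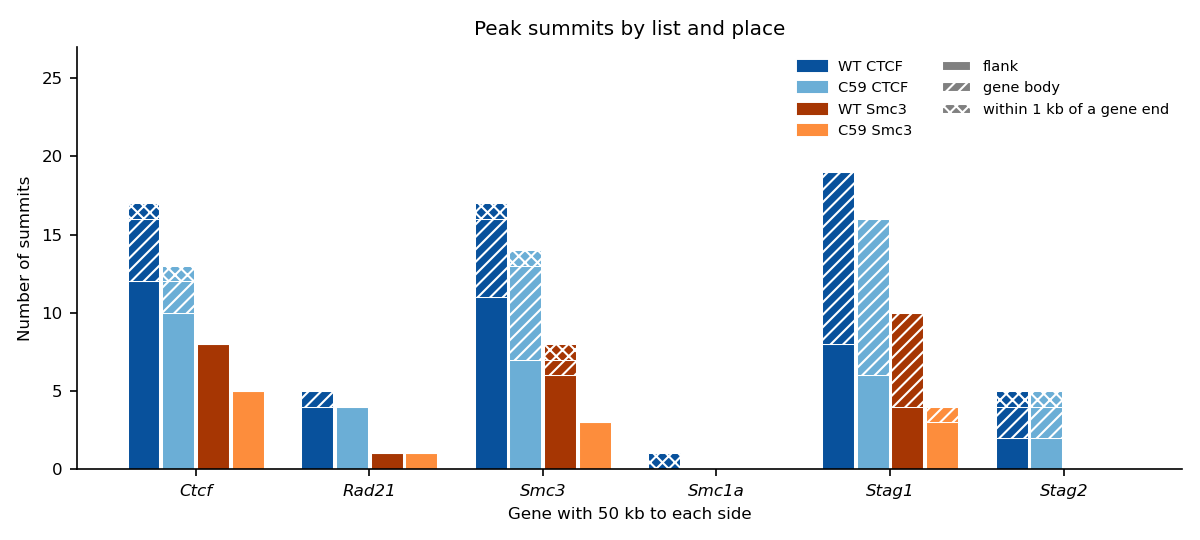
Number of summits in each gene with 50 kb to each side, by list (colour) and place (plain for flanks, hatched for gene bodies, crossed for within 1 kb of a gene end). Ctcf, Smc3 and Stag1 held 17, 17 and 19 WT CTCF summits, Rad21 and Stag2 5 each and Smc1a 1, and Smc3 summits of C59 numbered 5, 3 and 4 at the first 3 genes, 1 at Rad21 and 0 at Stag2 and Smc1a.

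The density of CTCF summits differed widely among the 6. Per 100 kb of window there were 11.6 WT CTCF summits at Ctcf and 11.7 at Smc3, 4.12 at Stag1, 3.82 at Rad21, 2.19 at Stag2 and 0.687 at Smc1a, against a median of 6.72 over the windows of all protein-coding genes and a middle range, from the lower to the upper quartile, of 2.81 to 11.6. On X the median was 1.94, so that Stag2 lay near it. For C59 CTCF the values ran in the same order, from 9.63 at Smc3 and 8.88 at Ctcf to 2.19 at Stag2 and 0 at Smc1a. WT Smc3 had 5.50 at the Smc3 gene, 5.46 at Ctcf, 2.17 at Stag1 and 0.764 at Rad21, with a median of 2.97 over all genes. The genes whose 4 densities were closest, by the sum of absolute differences over the 4 lists, were Wnt7b on chromosome 15 (0.0128) and Fchsd1 on chromosome 18 (0.331) for Ctcf, and Cd160 on chromosome 3 (0.0223) and Wdr36 on chromosome 18 (0.0756) for Rad21.

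Between the lines, CTCF sites of C59 were all sites of WT here, and what C59 lacked was weak. Of 64 WT CTCF peaks 51 were found in C59, a share of 79.7% (67.8 to 88.7), against 79.8% over all peaks of the list. All 29 with a fold at or above the list's median of 9.50 were found, and 22 of the 35 below it, against 99.9% and 59.7% of all such peaks. The 13 that were not found had folds from 2.36 to 7.61 with a median of 4.30, and the 51 that were found had a median of 10.2. In the other direction 52 of 52 C59 CTCF peaks overlapped a WT peak (93.2% to 100%), against 97.1% of the whole list. The share found again at these genes was thus close to that of the genome, the tagged loci included, where 13 of 17 sites at Ctcf and 4 of 5 at Rad21 had CTCF in both lines.

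For Smc3 the share was lower. C59 had 12 of the 27 WT Smc3 peaks, or 44.4% (25.5 to 64.7), against 52.9% over the whole list, whose share lies within that interval. At or above the list's median fold of 5.80, 9 of 10 were found and below it 3 of 17, against 84.0% and 21.9% of all peaks. The one strong peak not found was that at the Stag1 promoter. All 13 C59 Smc3 peaks overlapped a WT Smc3 peak (75.3% to 100%), against 98.1% of the list. These shares depend on the lengths of the lists and on the overlap rule. With each list held to its 25734 strongest peaks, C59 had 11 of 12 WT Smc3 peaks (91.7%), and when an overlap had to cover 50% of both peaks, 8 of 13 C59 Smc3 peaks (61.5%) were found in WT.

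**Figure D3:**
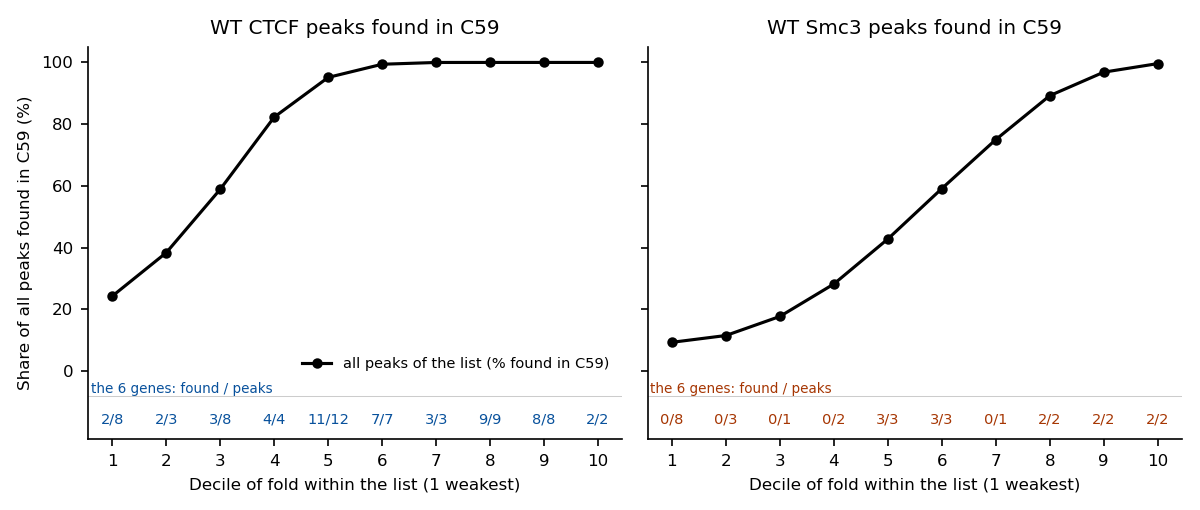
Share of all WT peaks found in C59 (black line, %) by decile of fold within the WT CTCF list (left) and the WT Smc3 list (right); the coloured figures give, for the 6 genes, peaks found of peaks in that decile. All WT CTCF peaks of the 6 genes that C59 lacked lie in the 5 weaker deciles, and so do the WT Smc3 peaks it lacked except the Stag1 promoter peak in the seventh; 0 of 8 WT Smc3 peaks were found in the weakest decile and 2 of 2 in the strongest.

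By place, 11 of the 12 WT Smc3 peaks found in C59 lay beside the genes and 1 in the body of Stag1. The 6 gene bodies, 657 kb in all, of which Stag1 makes up 360.8 kb, held 7 WT Smc3 summits away from the gene ends and 1 of C59. The flanks, 600 kb in all, held 19 and 12. CTCF summits numbered 23 in WT and 20 in C59 in the bodies and 37 and 29 in the flanks. Of the 23 WT CTCF peaks in the bodies 5 overlapped Smc3, and of the 37 in the flanks 16 did. Over all protein-coding genes, with a summit counted once for each gene whose window holds it, the shares were 41.3% in bodies and 44.2% in flanks. Counted so, 48950 WT CTCF summits lay in bodies and 164654 in flanks, so most lay beside the genes there too. The split by place was not made for Smc3 peaks over all genes, so the flank counts of Smc3 do not set these 6 genes apart. The median CTCF folds in the bodies and flanks of the 6 genes were 8.93 and 9.31 in WT, and 7.07 and 13.4 in C59. No test between places was made, since peaks of 1 gene share a library and a locus.

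Smc3 lay mostly on CTCF at these genes. Of 27 WT Smc3 peaks 25 overlapped a WT CTCF peak, or 92.6% (75.7 to 99.1), against 95.2% of the list, and all 13 of C59 overlapped C59 CTCF, against 97.9%. The 2 without CTCF, 24.3 kb before the Smc3 gene and next to the Stag1 promoter, had folds of 3.07 and 3.09 and were absent from C59. The reverse share was 22 of 64 WT CTCF peaks, or 34.4% (22.9 to 47.3), against 44.3%, and 12 of 52 in C59, or 23.1% (12.5 to 36.8), against 30.0% of all C59 CTCF peaks. At or above the median WT CTCF fold 20 of 29 had Smc3, against 78.2% of all such peaks, and below it 2 of 35, against 10.2%. The 9 strong peaks without Smc3 were 3 at Stag2, 2 at Stag1, 2 at Ctcf, and 1 each at Rad21 and Smc3. Under the 50% rule 12 of 27 WT Smc3 peaks (44.4%) overlapped CTCF and 12 of 64 WT CTCF peaks (18.8%) overlapped Smc3, as did 13.5% of C59 CTCF peaks, whereas with equal numbers of peaks 64.7% of WT and 60.0% of C59 CTCF peaks did.

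**Figure D4:**
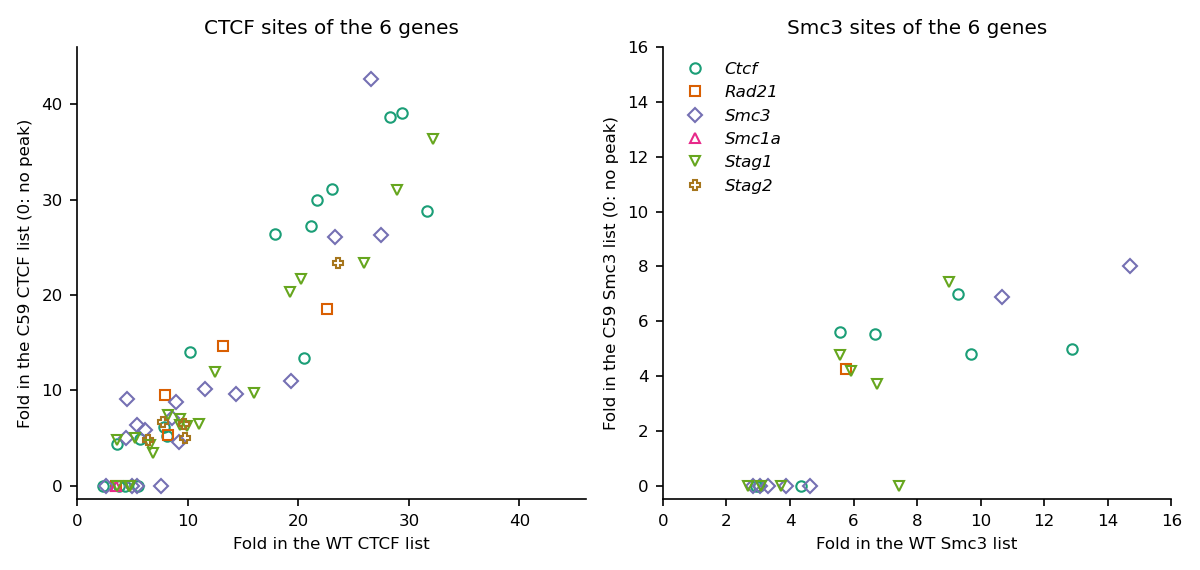
Authors' fold enrichment of each site of the 6 genes in the WT list (horizontal axis) and in the C59 list (vertical axis, 0 where C59 has no peak), for CTCF (left) and Smc3 (right), with the strongest peak of each list at a site. CTCF sites above 10 in WT all have a C59 value, while Smc3 sites at 0 in C59 lie below 5 in WT except the Stag1 promoter site at 7.44; the scales of the lists differ, so distance from the diagonal is not a measure of change.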

How the data were processed

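ChIP-seq libraries of JM8.N4 mouse embryonic stem cells were sequenced as single-end reads, per the labels' protocols, and 4 of 8 had a peak list. The submitters' processing notes list MACS2 2.1.0.20140616, Bowtie 0.12.8 and the build mm10 without saying how each was used. The control used for calling, the threshold and the fragment length are not given in the sources used here. The signal, the authors' pileup of fragments at a summit, came in whole numbers for WT and in steps of 0.961 (CTCF) and 0.772 (Smc3) for C59. Every peak has a p-value and a q-value as the authors deposited them, with q at most 0.0495. Fold enrichment is the authors' ratio of pileup to background, and the background was recovered by dividing the pileup plus 1 by the fold and subtracting 1.

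Positions count from 1. Peaks belonged to a gene by summit and counted as shared from 1 bp of overlap. Gene ends are the ends in the RefSeq table, used without strand or exons. Overlap and placement were tested on simulated data. Python 3.11.15, numpy 2.4.6, pandas 2.3.3, scipy 1.17.1 and matplotlib 3.10.9 were used. All 6 genes are named throughout, with their gene-end peaks and strongest peaks. Neighbours are named only where such a peak lies at or in them, and for likeness the 2 genes closest in summits per 100 kb. The genes and lists were chosen with earlier results of these data known. Alternatives were another overlap rule, a q of at most 1e-05, a flank of 20 kb, lists of equal length and a gene-end window of 2500 bp.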

Additional observations from a re-analysis of the deposited data

How the results depend on the processing

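Of the alternatives that could move a share or count, equal numbers of peaks raised the share of WT Smc3 peaks found in C59 from 44.4% to 91.7%, of WT CTCF peaks with Smc3 from 34.4% to 64.7% and of C59 CTCF peaks with Smc3 from 23.1% to 60.0%, over 12, 17 and 15 peaks. An overlap of 50% of both peaks lowered the share of C59 CTCF peaks found in WT from 100% to 90.4%, of C59 Smc3 peaks found in WT from 100% to 61.5%, of WT Smc3 peaks on CTCF from 92.6% to 44.4% and of WT CTCF peaks with Smc3 to 18.8%. A narrow peak within a much wider one fails that overlap rule. At a q of at most 1e-05 the share of WT Smc3 peaks on CTCF was 100% of 19. A flank of 20 kb, which shortens the windows, left 37 CTCF and 12 Smc3 summits in WT and 30 and 5 in C59. The other 33 of 48 values lay within the interval of the reported share or within 1.5 times the reported count. No paired analysis was possible because each line and protein had 1 library. The part of depth in the sites that C59 lacked was not tested. In an alternative chosen after seeing the data, a gene-end window of 2500 bp gave 10 regulator genes with CTCF in each line, in place of 6 in WT and 4 in C59, and 5 with WT Smc3, in place of 3.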
